A study of Mus musculus with 4 samples.

Results

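The genes described here encode the killing machinery of cytotoxic lymphocytes and a set of molecules made beside it: the granzymes Gzma, Gzmb, Gzmc and Gzmk, the pore protein perforin (Prf1), the granule proteins Nkg7 and cathepsin W (Ctsw), Fas ligand (Fasl) and the chemokine Ccl5. They were taken by gene symbol, and all 9 were present among the 19465 genes of the deposited count tables. The data come from 4 mouse heart sections, fixed and embedded in paraffin and profiled with Visium, in which each spot on the slide captures the RNA of a small patch of tissue that can hold several cells. All mice were wild type, of strain FVB/NJ. All were immunized with MyHCα peptide, from the myosin heavy chain of heart muscle, and treated with anti-PD-1 and anti-CTLA-4, which are immune checkpoint inhibitors (ICIs). Sections 1 and 2 of the ICI-alone group came from mice with no further treatment, in which the labels record myocarditis. The 2 sections of the antibody group came from mice that also received an antibody neutralizing IL-17A, and for these the labels record mitigated disease. Each group has a section of batch 1 and a section of batch 2. The labels give no age, and they do not say whether each section is from its own animal. The p-values therefore measure only how far these sections spread, which may be technical. No untreated heart was analysed here. Section and batch share a number, and values for single sections are given in the order ICI-alone 1, ICI-alone 2, antibody 1, antibody 2.

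Cytotoxic T cells and natural killer (NK) cells store granzymes and perforin in secretory granules and release them towards a target cell, where perforin lets granzymes enter and cleave substrates that lead to cell death. Granzyme B, a caspase-like protease, and granzyme A, a tryptase, are the best known granzymes of both cell types, while mice also carry a cluster of closely related granzyme genes (Gzmc to Gzmg and Gzmn) beside Gzmb that is used by strongly activated lymphocytes. Fas ligand kills through a death receptor instead, and Ccl5 attracts T cells and other leukocytes. In heart inflammation under checkpoint inhibitors, T cells and macrophages are the cells best known to infiltrate the muscle.

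Gene positions are those of RefSeq on GRCm38.p6, which is mm10, and all are protein coding. Gzmb (ENSMUSG00000015437, chromosome 14, 56258836 to 56262334), Gzmc (ENSMUSG00000079186, chromosome 14, 56231397 to 56241647), Gzmf (chromosome 14, 56205263 to 56211407) and Gzmg (chromosome 14, 56156581 to 56159579) lie in the same cluster. Gzma (ENSMUSG00000023132, 113093824 to 113100981) and Gzmk (ENSMUSG00000042385, 113171630 to 113180965) neighbour each other on chromosome 13. Prf1 (ENSMUSG00000037202) lies on chromosome 10 from 61297751 to 61304684, Nkg7 (ENSMUSG00000004612) on chromosome 7 from 43437138 to 43438246, Fasl (ENSMUSG00000000817) on chromosome 1 from 161780691 to 161788495, Ctsw (ENSMUSG00000024910) on chromosome 19 from 5465043 to 5468628, and Ccl5 (ENSMUSG00000035042) on chromosome 11 from 83525778 to 83530518.

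The results below describe Gzma, Gzmb, Gzmc, Gzmf and Gzmg by their place in the tissue. The 250 bases before the transcription start that RefSeq uses are therefore shown for these 5 genes, all on the minus strand, 5′ to 3′ along the gene. A promoter was found in the RefSeq table for 7 of the 9 members, and for Ctsw and Ccl5 none is printed. The windows are Gzma chr13:113100982-113101231, Gzmb chr14:56262335-56262584, Gzmc chr14:56234658-56234907, Gzmf chr14:56211408-56211657 and Gzmg chr14:56159580-56159829. That of Gzmc lies inside the span of the gene. Capitals mark the RUNX core TGTGGT and the CREB/ATF site TGACGTC, each searched on both strands.
Gzma: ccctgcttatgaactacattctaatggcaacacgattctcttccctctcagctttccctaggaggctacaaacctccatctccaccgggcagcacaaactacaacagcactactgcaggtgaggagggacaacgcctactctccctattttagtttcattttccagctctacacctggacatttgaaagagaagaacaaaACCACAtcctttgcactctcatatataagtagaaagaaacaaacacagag
Gzmb: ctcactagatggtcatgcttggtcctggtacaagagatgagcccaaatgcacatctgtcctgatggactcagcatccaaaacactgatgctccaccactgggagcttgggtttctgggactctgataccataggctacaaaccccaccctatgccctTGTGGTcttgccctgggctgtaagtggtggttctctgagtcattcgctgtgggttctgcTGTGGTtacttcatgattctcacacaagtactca
Gzmc: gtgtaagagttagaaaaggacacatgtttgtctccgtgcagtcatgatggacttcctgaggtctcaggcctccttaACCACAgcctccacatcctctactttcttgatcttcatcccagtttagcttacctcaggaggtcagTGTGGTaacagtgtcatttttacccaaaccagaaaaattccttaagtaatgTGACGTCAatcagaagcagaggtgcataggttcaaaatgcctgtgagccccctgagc
Gzmf: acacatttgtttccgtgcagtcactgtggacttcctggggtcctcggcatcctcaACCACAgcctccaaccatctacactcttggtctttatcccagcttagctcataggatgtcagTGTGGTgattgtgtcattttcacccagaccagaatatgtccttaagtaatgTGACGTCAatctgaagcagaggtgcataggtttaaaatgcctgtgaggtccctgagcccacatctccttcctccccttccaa
Gzmg: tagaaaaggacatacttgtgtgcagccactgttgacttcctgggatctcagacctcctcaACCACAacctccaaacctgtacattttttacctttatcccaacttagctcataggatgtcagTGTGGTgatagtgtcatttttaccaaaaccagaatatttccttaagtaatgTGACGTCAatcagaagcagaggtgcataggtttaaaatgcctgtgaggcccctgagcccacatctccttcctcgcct

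The windows of Gzmf and Gzmg were identical at 82.2% of aligned positions, and that of Gzmc was identical to Gzmg at 73.7% and to Gzmf at 70.2%. Between Gzmb and Gzmc the identity was 47.5%, between Gzma and Gzmb 44.5%, and between the neighbours Gzma and Gzmk 44.7%. The palindromic CREB/ATF site, matched on both strands in overlap, began 57 bases before the start in Gzmc, 82 in Gzmf and 77 in Gzmg, and these letters were not in the Gzma and Gzmb windows. Of all 32851 windows of this length in the table, 2.78% held this motif. The RUNX core was in all 5 windows and in 14.0% of the whole table. The last motifs searched were the T-box core GGTGTG (16.3% of all windows) and the AP-1 site TGANTCA (6.75%), where N is any base. The T-box core was in none of the 5 windows and the AP-1 site in that of Gzmb. A match is a description of the letters, not a binding site. The related genes are alike, and the sources used here do not give the probes, so counts of Gzmc, Gzme, Gzmf, Gzmg and Gzmn may be shared between them and are uncertain as separate genes. Gzmd was not analysed here.

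The sections held 2503, 3052, 2604 and 2585 spots under tissue and between 33005923 and 73167202 UMIs (unique molecular identifiers, counted molecules), fewer in the antibody sections. The labelled tissue was borne out by 8 measured cardiomyocyte genes, which summed to between 31658 and 88685 CPM, the counts scaled so that each section has the same total. The T cell panel, 15 genes of the T cell receptor complex and its signalling that include no member, summed to 182, 176, 228 and 243 CPM, and the macrophage panel of 12 genes to 2413, 3266, 1245 and 1816 CPM. Pairs of sections shared between 2040 and 2239 spot barcodes, which on such slides encode a position and not a cell.

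UMIs of the members ranged widely. Ccl5 had 10978, 9061, 9156 and 5861 UMIs and was seen in 51.1% to 66.4% of spots, and Gzmb had 2134, 1665, 1371 and 690 UMIs in 14.3% to 30.0% of spots. Gzma had 861, 742, 1024 and 863 UMIs in 17.3% to 21.4% of spots. Between 363 and 451 UMIs were counted for Prf1, 421 to 608 for Nkg7, 185 to 357 for Ctsw and 171 to 443 for Gzmc. Fasl (60, 37, 61 and 42 UMIs) and Gzmk (15, 25, 34 and 26 UMIs) were so sparse that their values are imprecise. No section had more than 2 UMIs of Fasl or Gzmk in any spot, while Gzmb reached 44 in a spot of ICI-alone 1. Different genes have different probes, so their levels are not compared with each other.

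Across whole sections, Gzma rose with the antibody and Gzmb did not differ beyond the spread between sections. Levels are UMI counts scaled to CPM with TMM factors, given as mean ± SD with n = 2 sections a group, and log2 fold changes (± SE) are antibody over ICI alone. Gzma, the tryptase, was at 12.9, 10.9, 21.4 and 24.5 CPM, so that both antibody sections lay above both ICI-alone sections. It went from 11.9 ± 1.39 to 23.0 ± 2.22 CPM (log2 fold change 0.95 ± 0.16, edgeR adjusted p = 0.0237). Without antibody section 1 its adjusted p was 0.0547 and without antibody section 2 it was 0.0708. Among all 18817 genes tested 11.8% passed at an adjusted p under 0.05 (3.03% as higher, 8.81% as lower), and Gzma was the only member of the 9 to pass. Batch used as a block brought the count to 3, adding Gzmk (adjusted p = 0.0335) and Nkg7 (adjusted p = 0.0496).

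Gzmb, the caspase-like granzyme, was at 31.9, 24.5, 28.6 and 19.6 CPM, and the groups overlapped. The means were 28.2 ± 5.27 CPM with ICIs alone and 24.1 ± 6.38 CPM with the antibody (log2 fold change -0.22 ± 0.22, edgeR adjusted p = 0.468). Gzmc was at 2.66, 3.78, 9.25 and 4.86 CPM (log2 fold change 1.14 ± 0.34, edgeR adjusted p = 0.0679), and antibody section 1 was far above the other sections. Gzmk, a granzyme known from less differentiated memory T cells, was at 0.224, 0.368, 0.710 and 0.739 CPM (log2 fold change 1.28 ± 0.34, edgeR adjusted p = 0.0524). The groups of Gzmc and Gzmk did not overlap, although neither passed.

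Prf1, which forms the pore, was at 6.73, 6.41, 9.42 and 10.3 CPM, and its groups were apart (log2 fold change 0.59 ± 0.17, edgeR adjusted p = 0.0672). Nkg7, a membrane protein of cytotoxic granules needed for their release, was at 9.10, 6.47, 12.3 and 11.96 CPM (log2 fold change 0.64 ± 0.21, edgeR adjusted p = 0.0809). Ctsw, a cysteine protease of cytotoxic lymphocytes, was at 5.34, 2.72, 4.20 and 5.43 CPM, with overlapping groups (log2 fold change 0.25 ± 0.34, edgeR adjusted p = 0.597). Fasl was at 0.898, 0.544, 1.27 and 1.19 CPM (log2 fold change 0.78 ± 0.32, edgeR adjusted p = 0.137). For Ccl5 the levels were 164, 133, 191 and 167 CPM and the log2 fold change was 0.27 ± 0.19 (edgeR adjusted p = 0.326). Those of Prf1, Nkg7, Fasl and Ccl5 lay higher in both antibody sections than in both ICI-alone sections. How many of all genes tested lie apart in this way was not counted. Such separation, also that of Gzma, Gzmc and Gzmk, therefore only describes these sections.

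**Figure D1:**
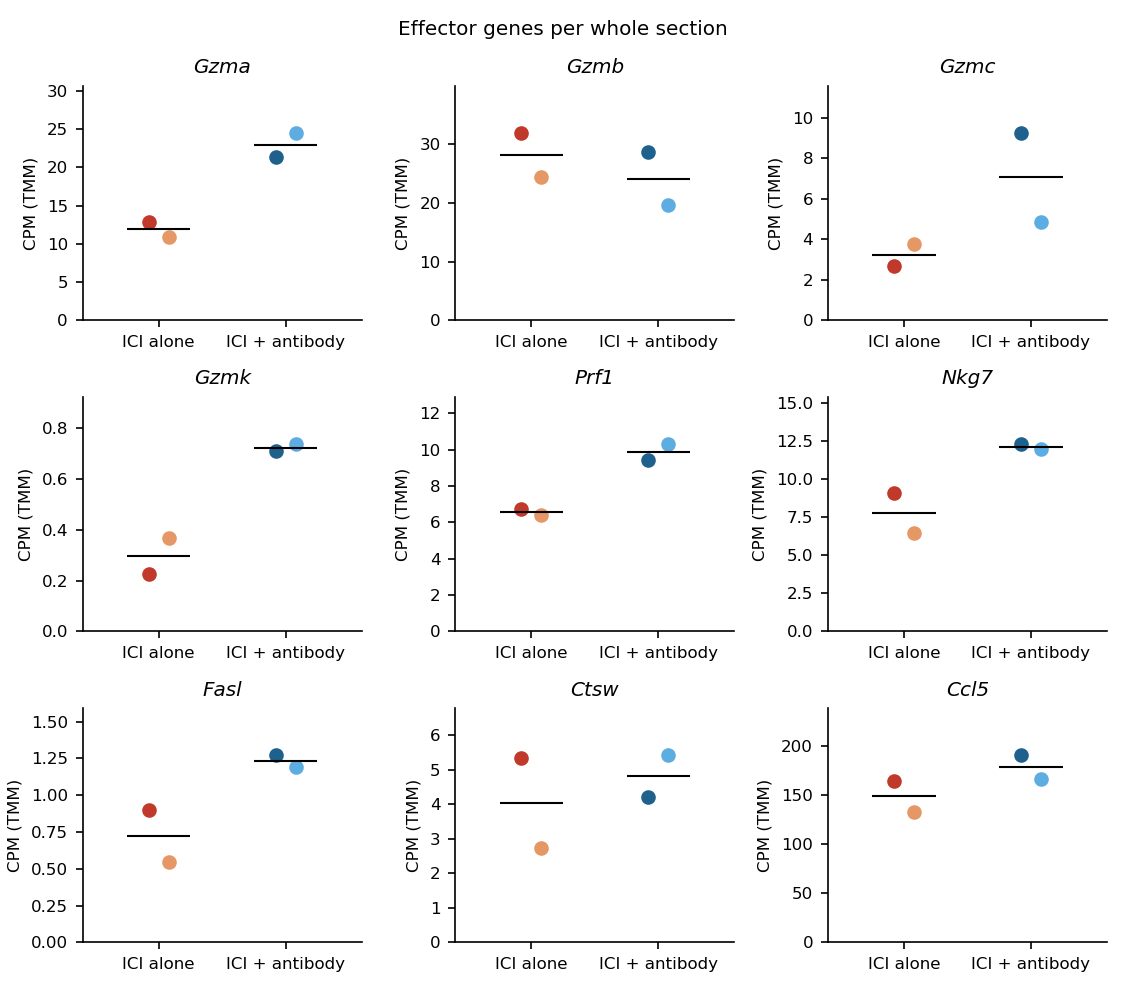
Level of each member per whole section (TMM-scaled CPM, linear axes from 0); points are sections, red and orange for ICI alone 1 and 2 and dark and light blue for antibody 1 and 2, and bars are group means (n = 2). Gzma went from 11.9 to 23.0 CPM, and the points of Gzmb and Ctsw overlapped between groups.

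The median log2 fold change of the 9 members was 0.64, beside 0.29 for the T cell panel and 0.09 for all genes. In the T cell panel 0 of 15 genes passed (edgeR, 5 at an unadjusted p under 0.05, 0 by DESeq2), and of the CD8 genes Cd8a and Cd8b1 0 of 2 passed (0 at an unadjusted p under 0.05, 0 by DESeq2). The NK receptor list had 0 of 11 tested genes past the threshold (edgeR, 5 at an unadjusted p under 0.05, 1 by DESeq2). Its summed level was 36.8, 29.0, 42.4 and 58.0 CPM, higher in both antibody sections, with Klrb1c and Klra4 at 0 in every section. The part of NK cells in the Gzma difference was not tested by this. The macrophage panel had 9 of 12 genes lower and none higher, and the neutrophil list 7 of 10 lower. In tissue spots, more cells of a type and more RNA per cell cannot be told apart.

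Of the other pathway genes, the regulators of effector lymphocytes had 2 of 10 higher, Eomes (log2 fold change 1.22, edgeR adjusted p = 0.0304) and Tbx21 (0.96, adjusted p = 0.0434), and Zeb2 was lower (-0.83, adjusted p = 0.0369). Among 10 effector cytokines Ifng (1.07, edgeR adjusted p = 0.0219) and Tnfsf10, the death ligand TRAIL (1.02, adjusted p = 0.0458), rose and the chemokine Ccl3 fell (-0.95, adjusted p = 0.0443). The genes of granule loading and release had 3 of 12 lower and none higher: Ctsc, the protease that activates granzymes (-1.10, edgeR adjusted p = 0.0234), Lyst (-0.69, adjusted p = 0.0287) and Gnptab (-0.56, adjusted p = 0.0479). Of the receptors and targets 3 of 11 were lower, among them Casp8, a caspase of death receptors (-0.71, edgeR adjusted p = 0.0362), and the chemokine receptor gene Ccr1 (-1.43, adjusted p = 0.0242), and Gpr75 was higher (1.36, adjusted p = 0.0280). Of 6 serpins of the granzyme inhibitor list Serpinb9b (-2.36, edgeR adjusted p = 0.0247) and Serpinb6a (-1.08, adjusted p = 0.0217) were lower. Ctsc, Lyst, Casp8 and Ccr1 are also made by macrophages, whose panel was lower in the same sections, and the part of those cells was not tested. None of the 5 other granzymes (Gzme, Gzmf, Gzmg, Gzmm, Gzmn) passed (edgeR, 1 at an unadjusted p under 0.05, 0 by DESeq2).

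Next, spots were classed by their T cell content, to ask whether the members lay where the T cell genes lay. A spot was called T cell-rich when the T cell panel, summed over the spot and its up to 6 grid neighbours, reached 439 CPM, the level that 10% of spots reach when sections weigh equally. This gave 148, 82, 435 and 378 spots, or 5.92%, 2.69%, 16.8% and 14.6% of each section. Relative to all other spots of the same section, all 9 members were higher in T cell-rich spots (all 9 passed the filter on low counts), where 35.4% of 14793 genes passed (16.9% as higher, 18.5% as lower). Gzmk passed that filter only through its T cell-rich sums, which held 3, 3, 22 and 13 UMIs. Its call therefore carries no weight as a test. Levels in T cell-rich spots against the other spots of the same section are given pairwise, on the TMM scale of that fit.

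Gzmb was at 70.9 against 28.8, 62.3 against 24.1, 103 against 9.17 and 61.3 against 11.2 CPM (log2 fold change 2.15 ± 0.38, edgeR adjusted p = 0.0108). It was higher in T cell-rich spots in each section, by far more in the antibody sections. Gzma was at 25.1 against 11.9, 17.8 against 11.03, 49.2 against 15.6 and 45.9 against 21.6 CPM, the smallest difference of the 9 (1.16 ± 0.17, edgeR adjusted p = 0.00741). Gzmc was at 4.24 against 2.54, 4.19 against 3.88, 31.2 against 3.61 and 12.9 against 3.33 CPM (1.71 ± 0.48, edgeR adjusted p = 0.0365), and its rise in ICI-alone 2 was slight. The other members rose by log2 values between 1.42 (Fasl, edgeR adjusted p = 0.0243) and 2.14 (Gzmk, adjusted p = 0.00688, with the limit given above): Prf1 by 1.73, Nkg7 by 1.87, Ctsw by 2.03 and Ccl5 by 2.1. Without antibody section 2 only Gzmk, Nkg7, Ctsw and Ccl5 passed, 4 of the 9.

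The members shared these spots with other immune genes. Cd8a (2.40, edgeR adjusted p = 0.00654) and Cd8b1 (2.41, adjusted p = 0.0067) were higher there, and so were 10 of 11 NK receptor genes (among them Klrk1, 1.74, adjusted p = 0.00881), 7 of 12 macrophage panel genes and 9 of 12 genes of granule loading and release, such as Cst7, an inhibitor of granule cathepsins (1.96, adjusted p = 0.0138), and Rab27a, which docks granules (1.35, adjusted p = 0.00784). The part of each cell type in the members' levels was not tested. Of the other granzymes Gzmf rose (1.57, edgeR adjusted p = 0.0462), Gzmg was at 1.44 (adjusted p = 0.0647) and Gzmm at -0.54 (adjusted p = 0.275), while Gzme and Gzmn were too sparse to be tested.

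**Figure D2:**
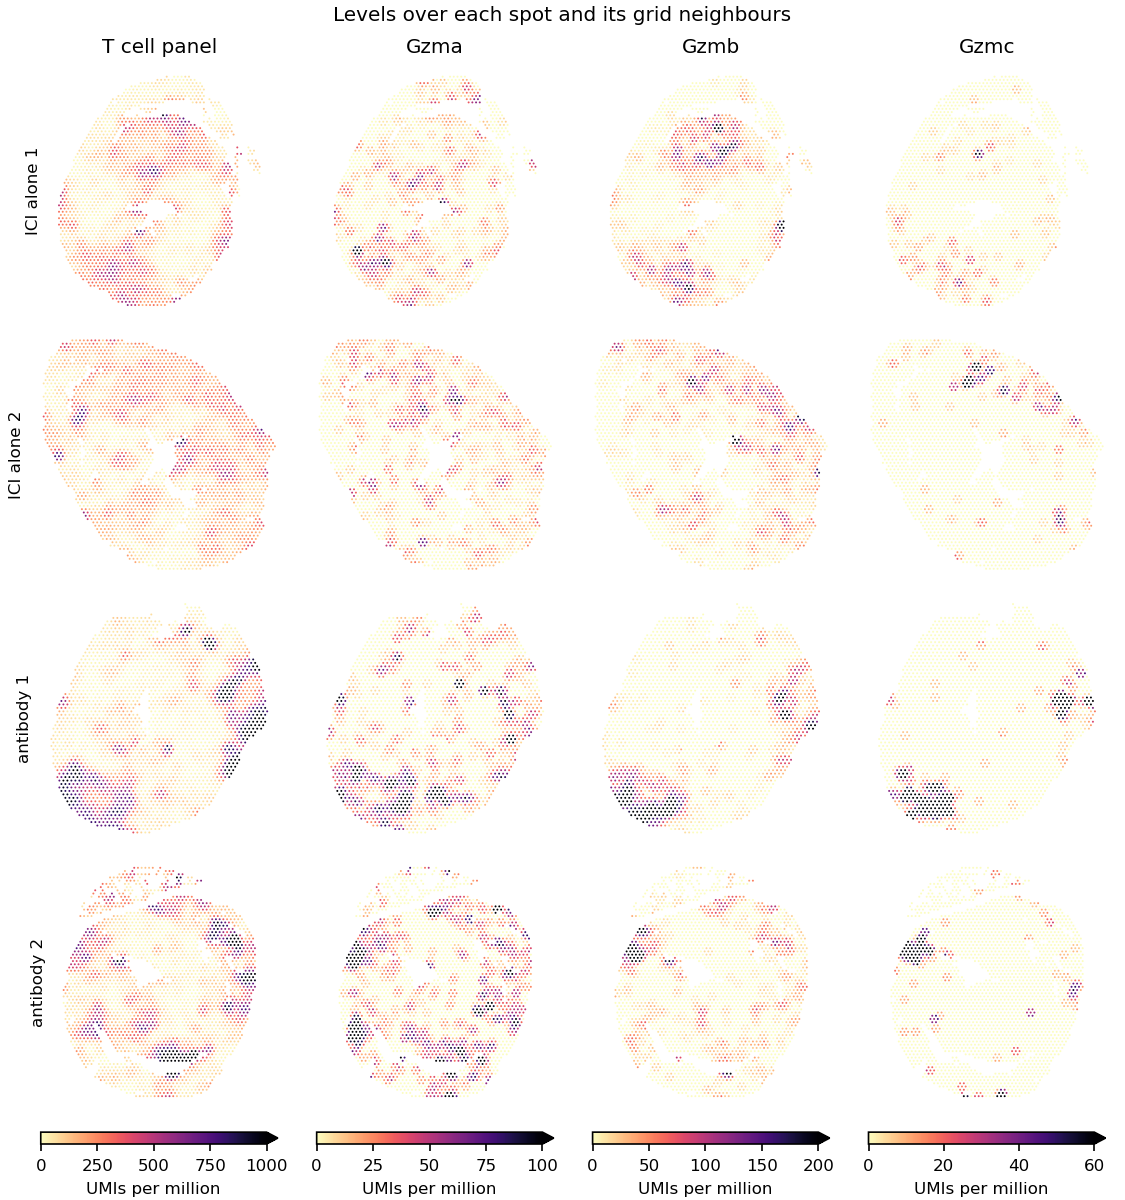
Maps of the 4 sections (rows), each dot a spot coloured by CPM over the spot and its grid neighbours, for the T cell panel, Gzma, Gzmb and Gzmc (columns; each column has its own linear scale, cut off at the top value shown). In antibody 1, T cell-rich spots hold 78.1% of Gzmb and 73.4% of Gzmc UMIs, and in antibody 2 57.7% and 49.1%. Of Gzma they hold 512 of 1024 UMIs in antibody 1 and 34.5% in antibody 2.

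To set the members beside the T cell genes themselves, spots were also classed by Cd3d, Cd3e and Cd3g alone, and the concentration in those Cd3-rich spots was compared with that of the other T cell panel genes. The log2 ratio of CPM in Cd3-rich over other spots ran over the T cell genes from 1.38 to 1.93 in ICI-alone 1, 0.86 to 2.01 in ICI-alone 2, 1.28 to 3.42 in antibody 1 and 1.17 to 2.59 in antibody 2. Nkg7, Ctsw and Ccl5 fell within this range in all 4 sections. Gzma fell below it in 3 sections, with ratios of 1.04, 0.72, 1.67 and 0.93. Gzmc was below it in both ICI-alone sections (0.55 and -1.09) and within it in both antibody sections (2.54 and 2.33). Gzmb (1.08, 1.09, 3.22 and 2.40) and Prf1 (0.81, 1.03, 2.49 and 1.89) were below it in ICI-alone 1 and within it elsewhere. Gzmm, which is known from NK cells, was below it in all 4 sections (0.14, -0.29, -1.06 and -0.995), and so did not follow the T cell genes anywhere. It did not follow the NK receptor list either, with correlations over spots of -0.11, 0.04, -0.08 and -0.07. The counts of Gzmm were low, at 115, 75, 148 and 67 UMIs. On sparse counts, Fasl was below the range in 2 sections (1.06 in ICI-alone 1 and 0.26 in antibody 2) and Gzmk in ICI-alone 1 (0.68). Gzmn was below it in 3 sections, on 32 UMIs or fewer in each section. Gzme, Gzmf and Gzmg were below it in ICI-alone 1 only, and Gzmg was above it in antibody 2. These ratios are a description with no test.

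**Figure D3:**
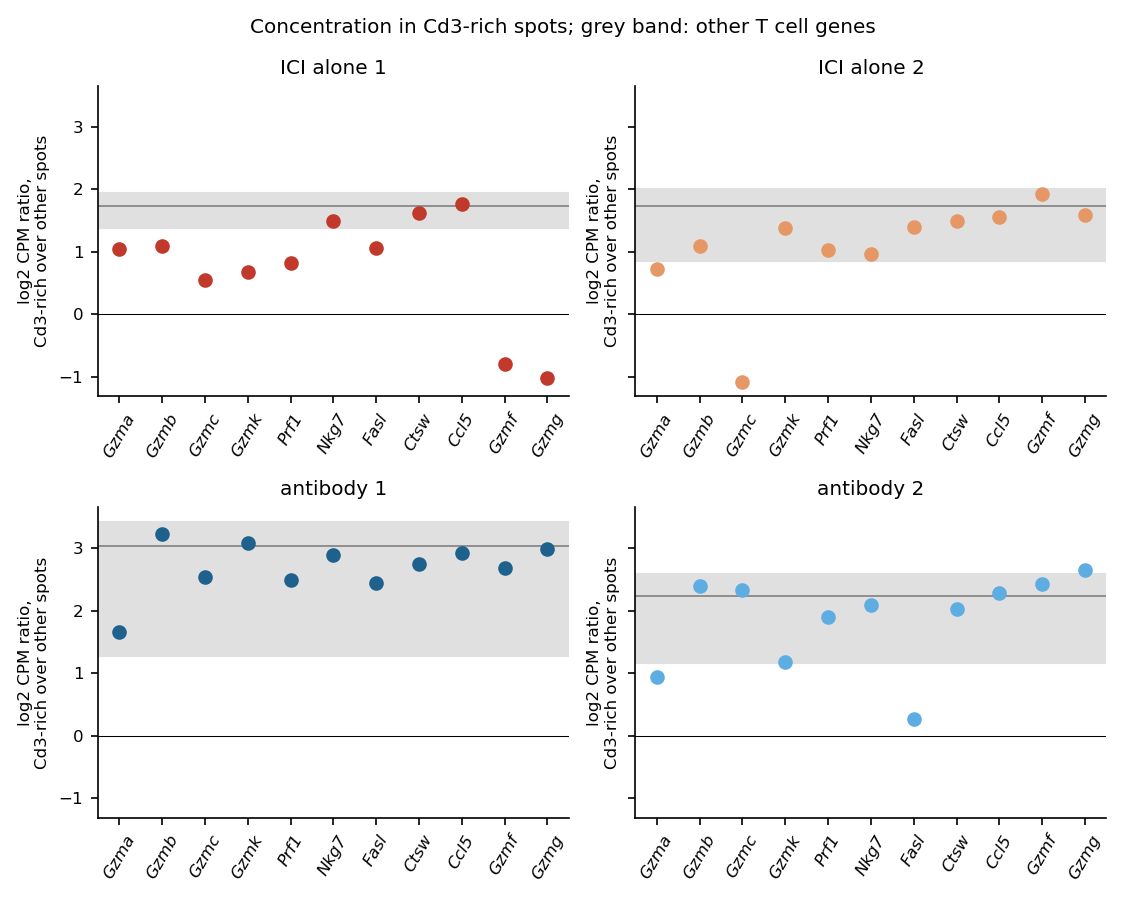
Log2 ratio of CPM in Cd3-rich over other spots for the members and for Gzmf and Gzmg in each section, on a shared axis; the grey band spans the other T cell panel genes and the grey line is their median. Gzma lies below the band in 3 of 4 sections, and Gzmc in both ICI-alone sections.

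With growing distance from T cell-rich spots Gzma fell off less than the T cell panel in every section. At 9 or more grid steps it was still at 28.9%, 49.7%, 18.5% and 16.3% of its level in T cell-rich spots. The T cell panel was at 8.93%, 21.6%, 6.84% and 7.97% there, and Ccl5 at 7.31%, 26.8%, 4.63% and 5.73%. Gzmb was at 5.84%, 30.6%, 2.06% and 5.31%. Prf1 (16.8%, 27.2%, 7.44% and 11.1%) and Nkg7 (12.3%, 31.8%, 8.22% and 12.4%) also stayed above the panel there in every section. The slower fall was thus not particular to Gzma. The panel itself defined the spots, so its own fall is set in part by the rule. Gzmc did not fall steadily in the ICI-alone sections, where it reached 107% at 2 steps in section 1 and 132% at 3 to 4 steps in section 2. At 9 or more steps it was at 16.0% in section 1 and 76.1% in section 2.

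**Figure D4:**
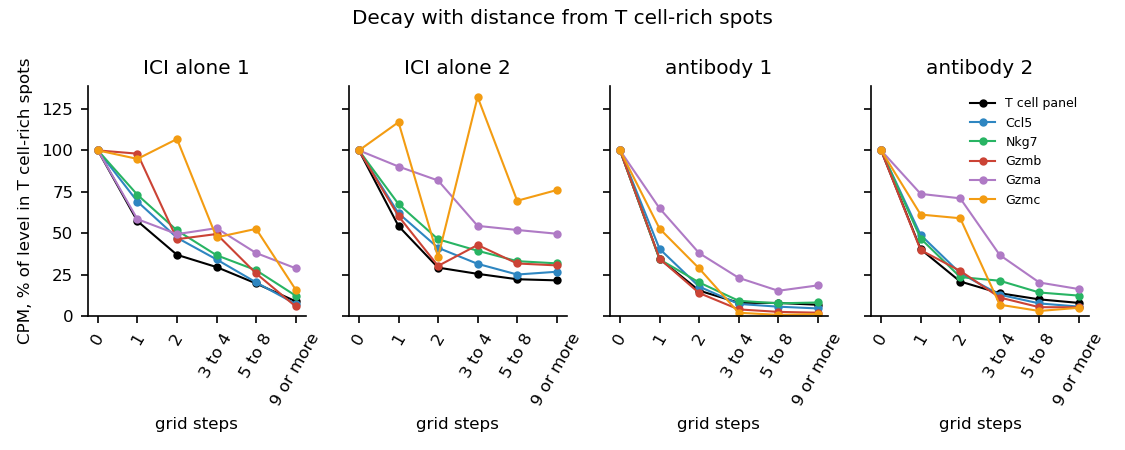
Level by distance in grid steps from the nearest T cell-rich spot, as a percent of the level in T cell-rich spots (0 steps), for the T cell panel and 5 members in each section. Gzma and Nkg7 stay above the T cell panel at 9 or more steps in every section. Gzmc does not fall steadily in the ICI-alone sections, and at 9 or more steps it is at 16.0% in section 1 and 76.1% in section 2.

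Relative to T cell UMIs, Gzma was higher with the antibody. Per 100 UMIs of the T cell panel there were 6.45, 6.37, 9.37 and 10.8 UMIs of Gzma (log2 fold change 0.65 ± 0.20, edgeR adjusted p = 0.0216), and the groups were apart. The median of all 18802 genes was -0.22 in this comparison, and 28.8% passed (2.29% as higher, 26.5% as lower). Gzmb had 16.0, 14.3, 12.5 and 8.60 UMIs per 100 T cell UMIs, lower in both antibody sections (-0.52 ± 0.20, edgeR adjusted p = 0.0678, and 0.0182 with batch as a block). Ccl5 stood at 82.3, 77.8, 83.8 and 73.0 (-0.03 ± 0.20, edgeR adjusted p = 0.927) and Ctsw at 2.68, 1.59, 1.84 and 2.38 (-0.02 ± 0.30, adjusted p = 0.968), with overlapping groups. With batch as a block Gzmc (0.79, edgeR adjusted p = 0.0136) and Gzmk (1.00, adjusted p = 0.0145) passed too. The call of Gzma was lost when the Cd3 genes alone served as the T cell measure (adjusted p = 0.0607) and without antibody section 1 (0.0930) or 2 (0.271).

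Within T cell-rich spots alone, Gzma was again higher with the antibody, at 26.4, 19.5, 53.2 and 50.1 CPM (log2 fold change 1.13 ± 0.20, edgeR adjusted p = 0.0454), where 1.16% of 12547 genes passed (0.303% as higher, 0.853% as lower). This call was lost with batch as a block (adjusted p = 0.140), without antibody section 1 (0.0780), with Cd3 genes alone (0.0538) and at 5% (0.249) or 20% of spots (0.0536). Gzmc was at 4.46, 4.58, 33.8 and 14.1 CPM, higher in each antibody section (2.43 ± 0.47, edgeR adjusted p = 0.0611). Prf1 was at 12.8, 18.3, 30.9 and 28.8 CPM (1.01 ± 0.23, edgeR adjusted p = 0.0913) and Nkg7 at 22.5, 17.2, 41.4 and 34.5 CPM (0.89 ± 0.21, adjusted p = 0.0977). For Gzmb the levels overlapped between groups, at 74.7, 68.1, 111 and 67.0 CPM (0.32 ± 0.24, edgeR adjusted p = 0.570). Antibody sections also had more T cell panel UMIs in these spots (598, 656, 794 and 766 CPM) and fewer of the macrophage panel (3397, 4587, 2523 and 2807 CPM).

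The concentration of Gzmb and Gzmc in T cell-rich spots differed by treatment when tested as an interaction. The log2 ratio of T cell-rich over other spots was larger with the antibody by 1.66 ± 0.29 for Gzmb (edgeR adjusted p = 0.0141) and by 2.09 ± 0.46 for Gzmc (adjusted p = 0.0399), in a test in which 2.15% of 17428 genes passed (2.09% as higher, 0.0631% as lower). For Gzmb the levels outside T cell-rich spots were 30.2, 24.8, 9.18 and 10.96 CPM, lower in both antibody sections. T cell-rich spots held 17.2%, 7.15%, 78.1% and 57.7% of all Gzmb UMIs, and were themselves 5.92%, 2.69%, 16.8% and 14.6% of the spots. The other 7 members had values between 0.43 (Gzmk) and 1.08 (Prf1) that did not pass. Both calls were lost at 5% of spots (Gzmb adjusted p = 0.108, Gzmc 0.378), at 20% (0.115 and 0.114), with the spot alone (0.145 and 0.553) and at 10 CPM or more in 2 sums (0.0866 and 0.115). They were also lost when each section had its own threshold of 10% of its spots, a setting chosen after seeing the data (Gzmb 1.10, adjusted p = 0.0830, and Gzmc 0.98, adjusted p = 0.199), and without ICI-alone section 1 (adjusted p = 0.157 and 0.167) or section 2 (0.355 and 0.580). Gzmc was also lost without antibody section 1 (1.46, adjusted p = 0.0899).

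Spots rich in T cells and spots rich in macrophages were then separated, leaving out spots that were both. Gzma, Nkg7 and Ctsw were higher in the T cell-only than in the macrophage-only spots. In this test 2.61% of 11965 genes passed (1.12% as higher in T cell spots, 1.49% as lower), and 7 of the 9 members had enough counts. Of the NK receptor genes 3 of 6 tested were higher in the T cell-only spots too, so these spots do not set T cells apart from NK cells. Gzma was at 27.0 against 7.90, 30.6 against 9.99, 54.8 against 14.3 and 50.6 against 23.8 CPM in T cell-only against macrophage-only spots (log2 fold change 1.71 ± 0.20, edgeR adjusted p = 0.0103), higher in each section. Ctsw (1.93 ± 0.41, edgeR adjusted p = 0.0430) and Nkg7 (1.27 ± 0.25, adjusted p = 0.0386) were higher too. Gzmb (0.80 ± 0.24, edgeR adjusted p = 0.0931), Ccl5 (1.04 ± 0.27, adjusted p = 0.0683) and Prf1 (0.63 ± 0.28, adjusted p = 0.223) did not pass.

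Gzmc showed no side in that comparison, at 5.14 against 4.68, 10.7 against 5.66, 33.2 against 53.0 and 15.5 against 0 CPM (-0.01 ± 0.37, edgeR adjusted p = 0.995). Its relatives Gzmf and Gzmg were lower in the T cell-only spots of both ICI-alone sections and antibody 1, and neither had a UMI in the 8 macrophage-only spots of antibody 2. Gzmf had a log2 fold change of -2.45 ± 0.39 (edgeR adjusted p = 0.0234) and Gzmg of -1.94 ± 0.37 (adjusted p = 0.0341). Only 26 and 8 spots of the antibody sections were macrophage-only, beside 199 and 784 with ICIs alone. Without ICI-alone section 1 no gene passed and without ICI-alone section 2 only 3 genes passed, none of them a member. At 20% of spots no gene passed either.

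A further place was described after its likeness to Gzmb was seen, and so without a test: spots in which Arg1 and Mmp12, genes of a macrophage state known from tissue repair, were highest (137, 210, 179 and 19 spots). There Gzmb had 35.1, 20.3, 23.2 and 19.1 UMIs per 100 T cell panel UMIs, against 11.6, 10.5, 11.8 and 8.83 in T cell-rich spots outside them. Gzmb was thus higher per T cell UMI in these spots in all 4 sections. T cell-rich spots were chosen for a high T cell panel, which is the denominator here. Their ratios are therefore in part lowered by the rule, and those of the rest of the tissue raised. Gzmc had 1.73, 2.86, 11.1 and 11.3 against 0.710, 0.708, 3.24 and 1.76, also higher in each section, although in antibody 2 this was 13 UMIs. Gzma went the other way in ICI-alone 1 (1.65 against 4.33) and antibody 1 (5.92 against 6.86), and was higher there in ICI-alone 2 and antibody 2 (4.53 against 3.01, and 10.4 against 6.66 on 12 UMIs). In the rest of the tissue Gzma had 7.74, 6.96, 16.9 and 15.8 UMIs per 100 T cell UMIs.

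**Figure D5:**
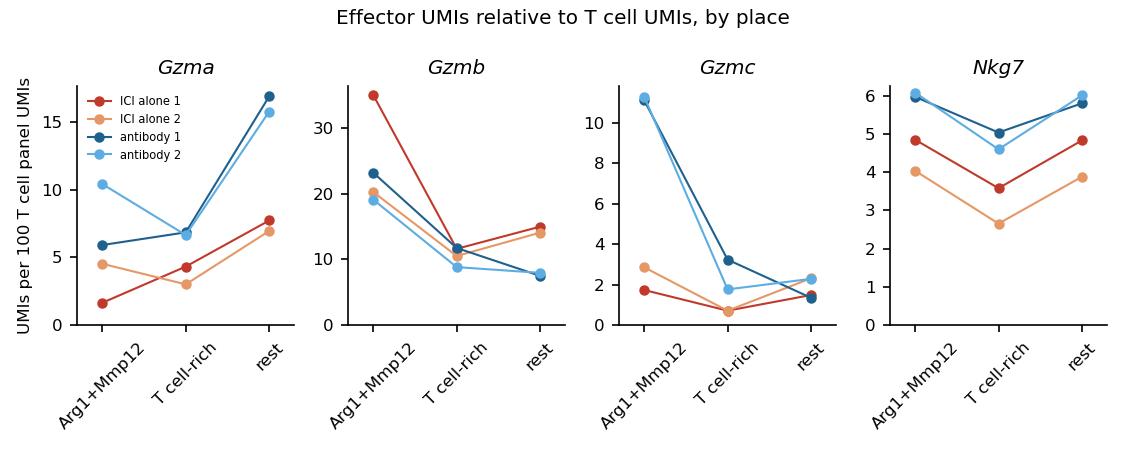
UMIs of Gzma, Gzmb, Gzmc and Nkg7 per 100 UMIs of the T cell panel in 3 places of each section (lines join the same section; linear axes from 0). Gzmb and Gzmc are highest in Arg1 and Mmp12 spots and Gzma is highest in the rest of the tissue in all 4 sections. The T cell panel also defined the T cell-rich spots, so these differences are set in part by the rule.

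Gzma was compared with NK receptor genes as well, in a comparison chosen after its correlation with them was seen. The p-values for Gzma do not allow for that choice, and fits without a section reuse the same data. Spots were called NK receptor-rich by the same rule, and spots rich in T cells alone were set against spots rich in NK receptors alone (84, 74, 118 and 72 against 70, 27, 52 and 192 spots). Gzma was at 14.7 against 52.8, 17.1 against 47.5, 26.7 against 67.7 and 21.2 against 56.4 CPM, lower in the T cell spots of every section (log2 fold change -1.53 ± 0.16, edgeR adjusted p = 2.45e-05). In that test 16.1% of 10809 genes passed (6.51% as higher, 9.58% as lower), and the adjusted p of Gzma stayed between 2.1e-05 and 0.00154 as each section was left out. Gzmb (0.33 ± 0.15, edgeR adjusted p = 0.163), Prf1 (-0.19 ± 0.23, adjusted p = 0.642), Nkg7 (0.03 ± 0.22, adjusted p = 0.950) and Ctsw (0.26 ± 0.26, adjusted p = 0.555) did not pass. Gzmc was lower in the T cell spots (-0.96 ± 0.30, edgeR adjusted p = 0.0315) and Ccl5 higher (0.36 ± 0.12, adjusted p = 0.0416). Gzmc lost its call without ICI-alone section 1 or either antibody section, and Ccl5 without any of the 4. Several genes of the list, such as Klrk1, Klrg1 and Il2rb, are also made by activated T cells.

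Gzmf and Gzmg lay in small foci. Within 3 grid steps of its highest spot Gzmf had 59.2%, 40.2%, 25.2% and 25.7% of its UMIs in the section, and Gzmg 61.4%, 51.6%, 33.1% and 44.8%, in places that held between 1.30% and 2.52% of all UMIs. Each centre was picked from the same counts of the gene, so these shares are raised by the rule, most for sparse genes. The same spot was highest for Gzmf and Gzmg in each section. In ICI-alone 1 that spot held 34 UMIs of Gzmf, 21 of Gzmg and 7 of Gzmc beside 0 of Gzma. In antibody 1 it held 53 of Gzmf, 37 of Gzmg, 33 of Gzmb and 16 of Prf1 beside 9 of Gzma. In antibody 2 these foci rest on 9 UMIs of Gzmf and 13 of Gzmg. Gzmc had 7.30%, 22.2%, 23.0% and 40.4% of its UMIs around its own highest spot. Gzmb had 6.61%, 3.60%, 5.32% and 20.4%, and Gzma between 1.85% and 4.45%. The highest spot of Gzmc held 34, 31, 1 and 0 UMIs of Gzmf, so Gzmc did not share the foci of Gzmf in the antibody sections. Of the 5 windows shown, those of Gzmc, Gzmf and Gzmg hold the CREB/ATF letters, and any part of these letters in the foci was not tested.

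No member was called by position relative to the tissue edge, but few genes of any kind were, so this count is not a result about the members. Between spots within 2 grid steps of the edge and interior spots 0 of the 9 members passed (edgeR, 1 at an unadjusted p under 0.05, DESeq2 not run), in a test in which 0.0759% of 14502 genes passed. Gzmc had the largest value and was lower at the edge in each section, at 0.993 against 3.15, 2.16 against 4.28, 6.34 against 10.3 and 3.86 against 6.03 CPM (-0.94 ± 0.18, edgeR adjusted p = 0.168, and 0.0445 at 1 grid step).

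Across spots, each summed with its neighbours, the members differed in the genes they were most like. The measure is Pearson's r of log2(CPM + 10), averaged over the 4 sections, among genes with at least 200 UMIs in every section, and neighbouring spots and library depth are shared between points. Gzma was most like the T cell receptor gene Trbc1 (0.48), Ccl5 (0.47) and Prf1 (0.46). For Gzmb the nearest genes were Acod1 (0.73) and Il1rn (0.73), which activated macrophages make, and Actb (0.72). Gzmc was nearest to the chemokine gene Cxcl3 (0.49), Gzmb (0.48) and AA467197 (0.47). Prf1 was nearest to Gzmb (0.57), Acod1 (0.51) and Actb (0.51). Nkg7 followed Ccl5 (0.61), Trbc2 (0.59) and Tmsb4x (0.58), Ctsw followed Trbc2 (0.45), Ccl5 (0.44) and Ptprcap (0.43), and Ccl5 followed Tmsb4x (0.83), Cd52 (0.82) and Cd74 (0.80). The highest r was 0.15 for Gzmk (with Tagap) and 0.22 for Fasl (with Ltb), whose counts are sparse.

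With the NK receptor list Gzma had r of 0.52, 0.43, 0.60 and 0.52, and with the T cell panel 0.40, 0.33, 0.55 and 0.47, lower in each section. For Gzmb the r with the T cell panel was the higher, at 0.74, 0.58, 0.74 and 0.566 against 0.63, 0.48, 0.69 and 0.565 for the NK receptor list, with almost no gap in antibody 2. Moran's I in the authors' deposited table, a score of how far neighbouring spots resemble each other, was between 0.50 and 0.66 for Ccl5. For Gzmb the authors' deposited table gives 0.37, 0.22, 0.52 and 0.28, for Gzma 0.16, 0.089, 0.27 and 0.16 and for Gzmc 0.091, 0.18, 0.39 and 0.28. In each section the score of Gzmb was above that of Gzma.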

How the data were processed

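Per the matrix headers, the deposited counts (UMIs of each gene in each spot) come from Space Ranger 2.1.0, and the submitters' processing notes name mm10 and Seurat 5.1.0. The authors also deposited a score, Moran's I, with an adjusted p-value. Sections were grouped by the labels' treatment. Members and lists were chosen with earlier results of these data known. Counts were summed per section, or per section and spot class (spots under 1000 UMIs left out). They were filtered with filterByExpr, scaled with TMM and tested with edgeR 4.0.16 (limma 3.58.1, R 4.3.3) quasi-likelihood F tests, with Benjamini-Hochberg adjustment over all genes tested and a threshold of 0.05. Section was a block where spot classes were compared, and the genes that define a class were left out of its test. Scripts were tested on simulated data. Deviations of same-batch sections from their group means had r = 0.175 over 18817 genes. With 2 sections a group the other pairing has the opposite sign by construction, so this cannot show that batch pairs the sections. The labels give the batch, so a fit with batch as a replicate block is an alternative. DESeq2 1.42.0, other scalings, filters, spot shares and left-out sections were others. Named genes were the members, other granzymes, T cell panel and CD8 genes, up to 3 genes of each other list with the smallest p in the whole-section or T cell-rich test, and the 3 genes most like each member. A gene that this rule picks is not reported here, though counts include it. Klrk1 and Casp8 were named after their values were seen. Python 3.11.15 with numpy 2.4.6, pandas 2.3.3 and biopython 1.88 was used for spots and sequences.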

Additional observations from a re-analysis of the deposited data

Results flagged for a closer look

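The concentration in T cell-rich spots differed between the treatments for 2 members by the interaction test. The log2 ratio of T cell-rich over other spots was higher with the antibody by 1.66 for Gzmb (edgeR adjusted p = 0.0141) and by 2.09 for Gzmc (adjusted p = 0.0399), in both antibody sections against both ICI-alone sections. The adjusted p of Gzmb reached 0.355 and that of Gzmc 0.580 without ICI-alone section 2. Both calls were also lost without ICI-alone section 1, at 5% and 20% of spots, with the spot alone, with a threshold of each section and at 10 CPM or more in 2 sums, where 0 members passed by edgeR. T cell-rich spots were fewer in the ICI-alone sections (82 and 148 against 378 and 435), and the part of that in the result was not tested. Groups of 2 sections are too small for a check of single outlying sections.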

How the results depend on the processing

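Of 713 member values recomputed under alternatives, 584 kept their direction and side of the threshold, 57 lost a call, 38 gained one and 34 changed sign, 0 of which had been called. The cause of these changes was not tested. Leaving out a section leaves a group with 1, which is assumed to vary like the other group. Thresholds set within each section and the NK receptor comparison were chosen after seeing the data. The atrial-rich spots left out were 63, 536, 2 and 172. At these depths Gzmk and Fasl are the least precise members.

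Genes passing in the whole-section comparison numbered 2229, and 3830 with batch as a replicate block, 821 at 10 CPM or more in 2 sums, 1480 without atrial-rich spots and 329 to 4479 as each section was left out. Members numbered 1, and 3 with the block, 2 by DESeq2 and 0 to 3. Within T cell-rich spots 145 genes passed, and 3 with the block, 63 with library size alone, 301 by DESeq2, 521 with no filter, 15 at 20% of spots and 150 to 337. Members there numbered 1, and 0 with the block, 2 by DESeq2, 4 with no filter, 2 with Cd3 genes alone, 0 at 5% and 20%, 3 with own thresholds and 0 to 3. For T cell-rich against other spots the range was 714 to 5511 genes (5239 in the main comparison) and 4 to 9 members. Against macrophage-only spots 312 genes passed, and 597 at 5% of spots (antibody 2 then has no macrophage-only spot and is dropped), 0 at 20%, 153 with the spot alone, 147 with own thresholds, 1351 with no filter, 152 at 10 CPM and 0 to 1132. Members numbered 3, and 0 at 20%, 1 with own thresholds, 5 with no filter, 1 at 10 CPM and 0 to 4. In the interaction 375 genes passed, and 66 at 5%, 37 at 20%, 0 with the spot alone, 0 with own thresholds, 754 with no filter, 42 at 10 CPM and 0 to 3175. Members numbered 2, and 0 at 5%, 20%, the spot alone, own thresholds and 10 CPM, and 0 to 5. Per T cell UMI 5415 genes passed, with a range of 2633 to 6937, and 1 member, with 4 under the block, 0 with Cd3 genes alone and 1 to 3. At the edge 11 genes passed, and 254 at 1 grid step, 0 at 4 steps and 2 to 58, with 0 members, 1 at 1 step and 0 to 0. For NK receptors 1740 genes passed (680 to 1766) and 3 members (1 to 2).

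Signs changed for these log2 values, none of them called. As sections were left out Gzmb ran from -0.53 to 0.019 and Ctsw from -0.15 to 0.75 over whole sections, and Gzmb from -0.11 to 0.64 and Ctsw from -0.13 to 0.81 within T cell-rich spots, where Ccl5 was -0.063 at 5% of spots. Against macrophage-only spots Gzmc was 0.61 at 20%, 1.21 with the spot alone, 0.18 with own thresholds, 0.0024 with library size alone, 0.29 by DESeq2, 0.016 with no filter and -0.15 to 0.55 as sections were left out. In the interaction Fasl was -0.40 at 5%, -0.12 with the spot alone, -0.11 with own thresholds and -0.38 to 1.08. Per T cell UMI Ctsw was 0.011 with the block, 0.021 with Cd3 genes alone and -0.35 to 0.41, and Ccl5 -0.13 to 0.066. At the edge Gzma and Ccl5 were 0.015 and 0.014 with library size alone, Gzmb 0.041 and Fasl -0.0080 at 4 steps, and the ranges were -0.30 to 0.087 for Gzmb, -0.13 to 0.31 for Fasl and -0.23 to 0.16 for Ccl5. For NK receptors Prf1 ran from -0.35 to 0.0070 and Nkg7 from -0.24 to 0.37.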
